A study of Mus musculus with 14 samples.

Results

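Transcripts of 35 genes of the autophagy machinery and of the nutrient-sensing kinase complex mTORC1 were followed in the brains of mice with chemically induced neuronal Gaucher disease. The genes were taken by symbol from a fixed list. All 35 were among the 13866 genes in the count table and all 35 passed the filter on low counts, which left 11852 genes. RNA was taken from the brains of 14 mice aged 19 days and measured by bulk MARSseq, which counts the 3' ends of transcripts. WT mice of the strain C57BL/6JOlaHsd received PBS (WT + PBS, 3 libraries) or conduritol B-epoxide (WT + CBE, 3 libraries), and MyTrMaSt null mice received PBS (MyTrMaSt + PBS, 3 libraries) or CBE (MyTrMaSt + CBE, 5 libraries). CBE irreversibly inhibits acid beta-glucosidase, the lysosomal enzyme that is defective in Gaucher disease, and was given by daily intraperitoneal injection of 100 mg/kg from day 8. MyTrMaSt null mice are deficient in MyD88, TRIF, MAVS and STING, adaptors through which innate immune receptors signal. The background strain of the null mice and the sex of the mice are not given in the sources used here, all 4 groups were injected, and each library is a mixture of all brain cells, so that fewer cells of a type and less RNA per cell cannot be told apart.

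Autophagy encloses cytoplasm in a membrane that fuses with the lysosome. The ULK kinase complex starts the process, a lipid kinase complex built on Beclin 1 marks the growing membrane, and a conjugation system attaches the small proteins of the Atg8 family (LC3 and GABARAP) to it, where cargo receptors such as p62 dock. mTORC1, which is held at the lysosomal surface by Rag GTPases and the Ragulator scaffold, restrains the ULK complex when nutrients are plentiful, and the transcription factors TFEB and TFE3 act downstream of it on autophagy and lysosomal genes.

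Levels of single libraries are given in the order of their replicate numbers, as CPM, read counts scaled to a common library size. The libraries held 1290616 to 3704691 counts. Myd88 had 19 to 71 counts in the WT libraries and 9 to 22 in the MyTrMaSt libraries. WT + PBS replicate 1 stood apart: it held the highest or the lowest level of all 14 libraries for 22 of the 35 genes (62.9%), as for 56.6% of all genes tested. MyTrMaSt + PBS replicate 3 did so for 17 of the 35 (48.6%), against 28.7% of all genes. Xist was at 0 counts in all WT + PBS libraries, while it had 1 to 47 in WT + CBE, 32 to 46 in MyTrMaSt + PBS and 0 to 39 in MyTrMaSt + CBE. Xist is transcribed from the inactive X chromosome of females, and its counts were unevenly spread over the groups. Between the PBS groups Xist and genotype cannot be told apart. In WT + CBE 1 library had 1 count and in MyTrMaSt + CBE 1 had 0, so that there the split is partial, and calls with Xist as a covariate are given beside the results. The summed level of 10 microglial markers was 585 to 803 CPM with PBS against 3250 to 3830 with CBE in WT mice, and 461 to 517 against 1620 to 1860 in MyTrMaSt mice, with 8 of the 10 called higher in each genotype. The summed level of 5 oligodendrocyte markers was 6860 to 7840 CPM with PBS against 4130 to 5470 with CBE in WT mice (4 of 5 called lower), and 7620 to 8660 against 5540 to 7120 in MyTrMaSt mice (0 of 5 called). The 6 astrocyte markers summed to 1210 to 1400 CPM with PBS against 2180 to 2400 with CBE in WT mice (3 called higher and 1 lower), and to 1290 to 1450 against 1960 to 2260 in MyTrMaSt mice (2 called higher). The 8 neuronal markers summed to 4260 to 5060 CPM against 3760 to 4120 in WT mice (2 called lower), and to 4910 to 5860 against 4180 to 4620 in MyTrMaSt mice (1 called lower). These values moved with CBE beside every result below, and their part in the results was not tested.

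After CBE, 4 of the 35 transcripts of the autophagy machinery and mTORC1 passed the test in WT mice (11.4%, against 10.6% of all genes) and 2 of 35 in MyTrMaSt mice (5.71%, against 7.75%) when all 14 libraries were fitted. These counts were 1 and 10 without WT + PBS replicate 1 (12.6% and 18.6% of all genes). In this fit no gene of the 35 was a DEG in either genotype, that is, none had both a 2-fold change and an adjusted p under 0.05. Among all genes, 6.4% met these thresholds after CBE in WT mice and 3.89% in MyTrMaSt mice. An unadjusted p below 0.05 was found for 9 of the 35 in WT (24.7% of all genes) and for 12 in MyTrMaSt mice (23.7% of all genes). The paper that reported these data names Map1lc3a among the genes lower after CBE in WT mice. Other settings put 2 genes past both thresholds in WT mice. These were Map1lc3a with DESeq2 (-1.06, adjusted p 0.0261) and, by edgeR, with no filter (-1.03, adjusted p 0.0488) or without WT + PBS replicate 2 or 3 (-1.39 and -1.21, adjusted p 0.00358 and 0.0368), and Gabarapl2 without WT + PBS replicate 3 (-1.10, adjusted p 0.00502). At an adjusted p below 0.05 alone (edgeR quasi-likelihood test, Benjamini-Hochberg over all genes), 4 of the 35 were called in WT mice, against 10.6% of all genes. Gabarapl2, Lamtor1 and Rptor were lower (3 of 35, against 3.89% of all genes) and Rragc was higher (1 of 35, against 6.7%). In MyTrMaSt mice 2 of the 35 were called, against 7.75% of all genes, and both of them, Gabarapl2 and Atg4b, were lower (2.44% of all genes), with 0 of 35 higher (5.32%). CBE and PBS libraries did not overlap for 11 of the 35 genes in WT (27.9% of all genes) and for 10 in MyTrMaSt mice (22.5% of all genes). The median log2 fold change of the 35 genes was -0.05 in WT and 0.00 in MyTrMaSt mice, beside -0.02 and 0.01 over all genes. The 95% interval of the fold change lay within 2-fold in either direction for 30 of the 35 genes in WT and 33 in MyTrMaSt mice (60.5% and 72.5% of all genes).

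**Figure D1:**
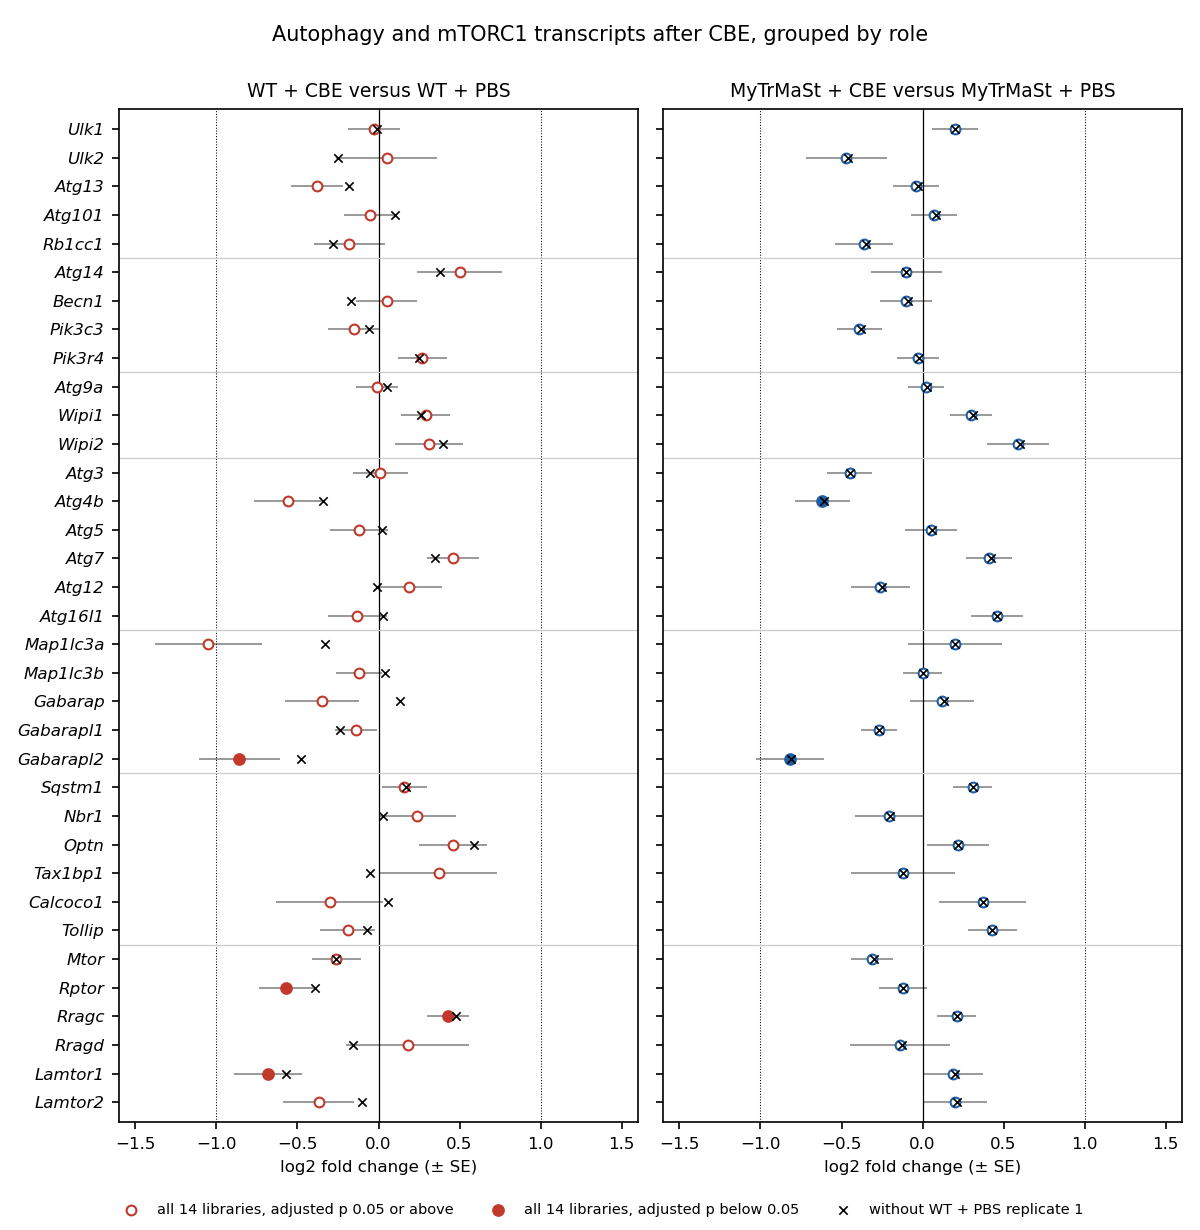
Log2 fold change (± SE) of each of the 35 genes after CBE in WT mice (left) and MyTrMaSt mice (right), with genes grouped by role. Filled points have an adjusted p below 0.05, crosses give the same value without WT + PBS replicate 1, and dotted lines mark 2-fold. Only Map1lc3a in WT lies beyond 2-fold, at -1.05, and its cross lies at -0.33.

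Which genes were called depended on the libraries and on the fit. Without WT + PBS replicate 1, 1 of the 35 genes was called in WT mice (12.6% of all genes) and 10 in MyTrMaSt mice (18.6% of all genes), of which 5 were higher and 5 lower. That library takes no part in the MyTrMaSt contrast itself but enters the shared estimate of the spread. With MyTrMaSt + PBS replicate 3 left out as well, 2 were called in WT (Gabarapl2 and Rragc, 13.7% of all genes) and 3 in MyTrMaSt mice (Gabarapl2, Atg4b and Atg7, 10.1% of all genes). In WT mice 0 of the 35 were called by edgeR with Xist as a covariate (5.45% of all genes) or with only the WT libraries fitted (4.46%), and 2, Gabarapl2 and Rragc, with a floor of 10 counts in every library (8.3%). Voom with sample weights called the same 4 genes as the fit of all libraries (16.9% of all genes), and DESeq2 called these and Map1lc3a (5 of 35, against 12.5%). In MyTrMaSt mice the Xist covariate left 1 gene called, Gabarapl2 (6.1% of all genes), and 0 were called without MyTrMaSt + PBS replicate 2 or 3 or MyTrMaSt + CBE replicate 2. DESeq2 called 4 there (10.1% of all genes), voom with sample weights 9 (17.4%), and the fit of the MyTrMaSt libraries alone 6 (15.1%), and each of these held Gabarapl2 and Atg4b. The share of all genes is not given here for the fits with a MyTrMaSt library left out by itself.

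**Figure D2:**
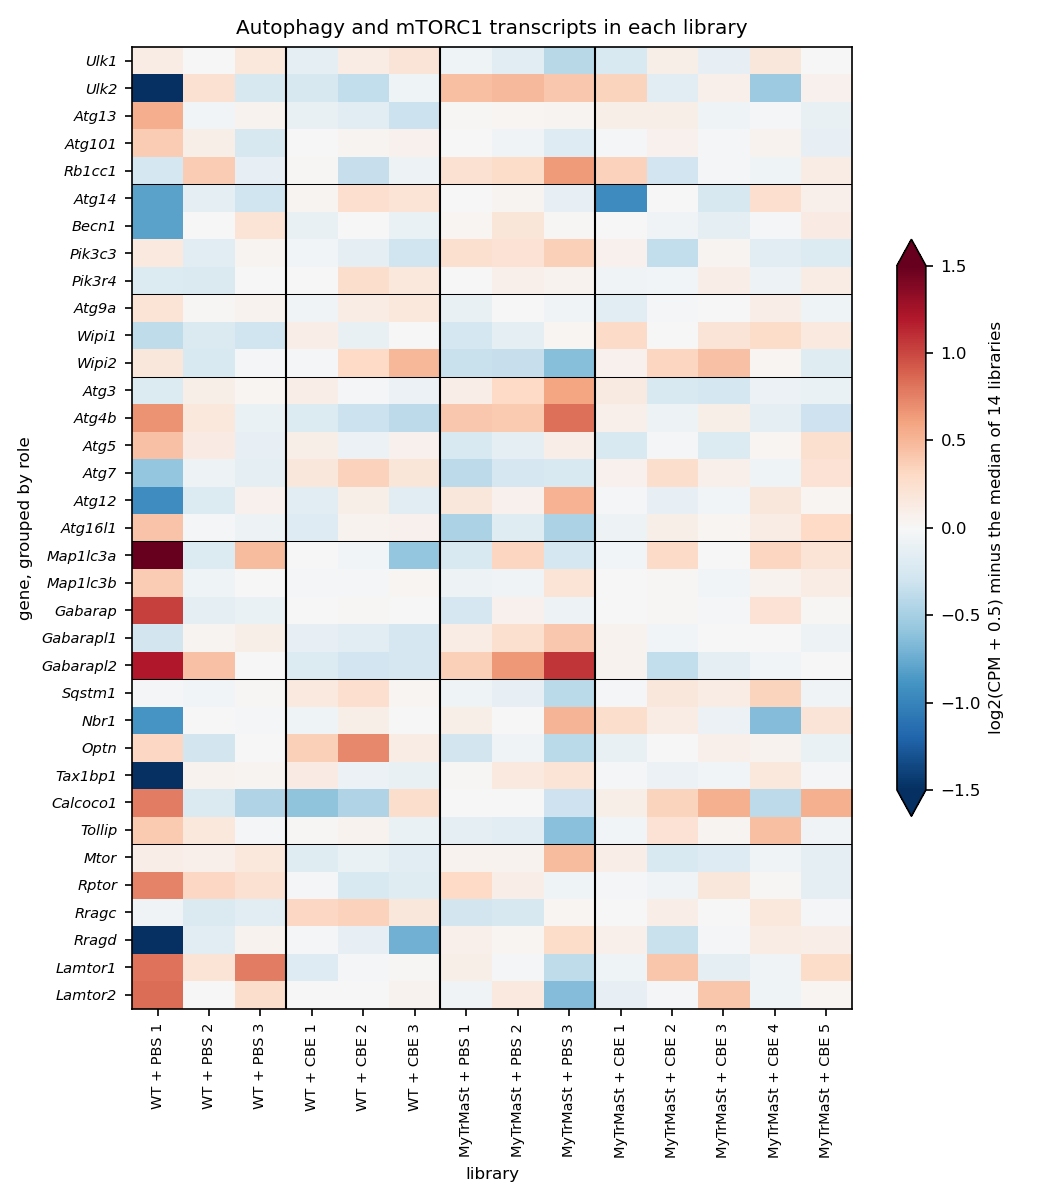
Level of each gene (rows, grouped by role) in each of the 14 libraries (columns), as log2(CPM + 0.5) minus the median of the 14 libraries. Red is above and blue below the median. WT + PBS replicate 1 is the highest for 13 genes and the lowest for 9.

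In the initiation kinase complex, none of 5 genes was called in WT (10.6% of all genes) or MyTrMaSt mice (7.75%). Ulk1, the kinase itself, had 106, 97.5 and 109 CPM with PBS and 88.2, 106 and 112 with CBE in WT mice, and 93.2, 87.7 and 73.3 with PBS and 83.4, 104, 89.6, 110 and 98.2 with CBE in MyTrMaSt mice. CBE and PBS libraries overlapped in both genotypes, with log2 fold changes of -0.03 ± 0.16 (SE) in WT and 0.20 ± 0.14 in MyTrMaSt mice (adjusted p 0.936 and 0.422, edgeR). Its 95% intervals ran from -0.36 to 0.30 and from -0.10 to 0.49. The other genes of the complex, Ulk2, Atg13, Atg101 and the scaffold Rb1cc1 (FIP200), lay between -0.38 and 0.05 in WT and between -0.47 and 0.07 in MyTrMaSt mice. Atg13 was the only gene of the 5 with an unadjusted p below 0.05, in WT mice (-0.38, adjusted p 0.139). With WT + PBS replicate 1 left out it stood at -0.18 (unadjusted p 0.166 and adjusted p 0.407, edgeR), while Ulk2 and Rb1cc1 had unadjusted p of 0.0108 and 0.0441 in MyTrMaSt mice (-0.46 and -0.35, adjusted p 0.0552 and 0.139).

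In the lipid kinase complex, none of 4 genes was called, against 10.6% of all genes in WT and 7.75% in MyTrMaSt mice. Becn1 (Beclin 1) had 81.2, 142 and 164 CPM with PBS and 131, 142 and 133 with CBE in WT mice, and 145, 161 and 144 with PBS and 142, 137, 128, 139 and 155 with CBE in MyTrMaSt mice. Apart from WT + PBS replicate 1, its libraries lay between 128 and 164 CPM. The fold changes were 0.05 ± 0.19 and -0.10 ± 0.16 on the log2 scale, and -0.17 in WT mice without that library. Pik3c3, the catalytic subunit VPS34, was lower in each of the 5 MyTrMaSt + CBE libraries than in each of the MyTrMaSt + PBS libraries, at -0.39 ± 0.14 (adjusted p 0.0985, and 0.0365 without WT + PBS replicate 1). In WT mice it stood at -0.15 ± 0.16, and at -0.06 without that library. Atg14 was higher in each WT + CBE library than in each WT + PBS library, at 0.50 ± 0.26 (adjusted p 0.262, edgeR), and at 0.38 without WT + PBS replicate 1. In MyTrMaSt mice Atg14 was at -0.10 ± 0.22, with overlapping groups. Pik3r4 was at 0.27 ± 0.15 in WT and -0.03 ± 0.13 in MyTrMaSt mice.

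Among the genes of the growing membrane, Atg9a, the lipid scramblase carried by vesicles to the phagophore, had 269, 235 and 241 CPM with PBS and 225, 251 and 261 with CBE in WT mice, and 216, 233 and 224 with PBS and 207, 231, 233, 250 and 222 with CBE in MyTrMaSt mice. The groups overlapped in both genotypes. The changes were -0.01 ± 0.13 in WT and 0.02 ± 0.11 in MyTrMaSt mice on the log2 scale, with 95% intervals from -0.28 to 0.26 and from -0.21 to 0.26. Wipi2, which binds the lipid made by VPS34 and recruits the conjugation machinery, had 36.1, 27.1 and 31.2 CPM with PBS and 31.4, 39.4 and 45.2 with CBE in WT mice, and 25.2, 25.1 and 20.4 with PBS and 33.5, 40.2, 43.4, 32.5 and 28.2 with CBE in MyTrMaSt mice. All MyTrMaSt + CBE libraries were above all MyTrMaSt + PBS libraries, at 0.59 ± 0.19 (adjusted p 0.0596, and 0.0187 without WT + PBS replicate 1), whereas the WT groups overlapped, at 0.31 ± 0.21 (adjusted p 0.399). Its relative Wipi1 stood at 0.29 ± 0.15 and 0.30 ± 0.13 (adjusted p 0.254 and 0.17).

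In the conjugation system, 1 of 6 genes was called in MyTrMaSt mice (7.75% of all genes) and 0 in WT mice (10.6%). Atg4b, the protease that trims Atg8 proteins before they are attached, had 77.6, 54.2 and 45.1 CPM with PBS and 41.9, 38.5 and 36.8 with CBE in WT mice, and 64.2, 63.4 and 86.3 with PBS and 51, 45.8, 51.5, 43.8 and 38.8 with CBE in MyTrMaSt mice. CBE libraries were below all PBS libraries in both genotypes. It fell by 0.62 ± 0.17 on the log2 scale in MyTrMaSt mice (71.3 ± 13 to 46.2 ± 5.3 CPM, mean ± SD, n = 3 and 5, adjusted p 0.0329, edgeR). In WT mice it was at -0.56 ± 0.21 (adjusted p 0.0953), and the interaction was not called (-0.07 ± 0.27, adjusted p 0.937). With WT + PBS replicate 1 left out these were -0.34 (adjusted p 0.259) and -0.28 (adjusted p 0.709). Its call was lost when any of 8 libraries was left out, which were WT + CBE replicates 2 and 3, all MyTrMaSt + PBS replicates, and MyTrMaSt + CBE replicates 2, 4 and 5. The adjusted p over the 14 libraries left out in turn ran from 0.00351 without WT + PBS replicate 1 to 0.25 without MyTrMaSt + PBS replicate 3, and was 0.0629 with the Xist covariate. The fold change ran from -0.70 to -0.46 over these 14 fits, with -0.46 without MyTrMaSt + PBS replicate 3, and was -0.60 with the covariate.

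Atg7, the activating enzyme of the system, was higher in each CBE library than in each PBS library of the same genotype, at 0.46 ± 0.16 in WT and 0.41 ± 0.14 in MyTrMaSt mice. Neither value was called (adjusted p 0.0852 and 0.0897). Without WT + PBS replicate 1 the MyTrMaSt value was 0.42 with an adjusted p of 0.0185, and the WT value 0.35 with an adjusted p of 0.144. Atg3, which transfers Atg8 proteins to lipid, was at 0.01 ± 0.17 in WT and -0.45 ± 0.14 in MyTrMaSt mice (adjusted p 0.0596, and 0.0147 without WT + PBS replicate 1). Atg16l1, which places the conjugation machinery on the membrane, was at -0.13 ± 0.18 and 0.46 ± 0.16 (adjusted p in MyTrMaSt 0.0836, and 0.0183 without that library). The WT values of Atg3 and Atg16l1 were -0.05 and 0.03 without it. Atg5 and Atg12, which are joined to each other in the same machinery, lay between -0.26 and 0.19.

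The Atg8 family held the gene called in both genotypes. Gabarapl2 (GATE-16), a member of the GABARAP branch, is encoded on chromosome 8 (111940703 to 111953612, GRCm38, plus strand). It had 208, 122 and 89.9 CPM with PBS and 77.7, 73.7 and 75.3 with CBE in WT mice, and 115, 142 and 190 with PBS and 93.5, 69.5, 81.5, 87.1 and 90 with CBE in MyTrMaSt mice. Every CBE library was below every PBS library of its genotype, and the PBS libraries spread more widely than the CBE libraries. It fell by 0.86 ± 0.25 on the log2 scale in WT mice (140 ± 61.4 to 75.6 ± 2.01 CPM, n = 3 and 3, adjusted p 0.0304, edgeR). In MyTrMaSt mice it fell by 0.82 ± 0.21 (149 ± 37.6 to 84.3 ± 9.4 CPM, n = 3 and 5, adjusted p 0.0217, edgeR). The interaction was 0.04 ± 0.32 (adjusted p 0.967, 95% interval from -0.64 to 0.73), and -0.33 without WT + PBS replicate 1 (adjusted p 0.657).

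The highest Gabarapl2 level within each PBS group was in the library that stood apart there. Without WT + PBS replicate 1 the WT change was -0.48 (adjusted p 0.0909), and the MyTrMaSt change was -0.81 (adjusted p 0.000411). Leaving out WT + CBE replicate 1, 2 or 3 also ended the WT call (adjusted p 0.0852, 0.112 and 0.0954), at log2 fold changes of -0.86, -0.84 and -0.86. Leaving out MyTrMaSt + PBS replicate 2 or 3 or MyTrMaSt + CBE replicate 2 ended the MyTrMaSt call (adjusted p 0.0611, 0.205 and 0.0601), with log2 fold changes from -0.85 to -0.60. With both libraries that stood apart left out, the changes were -0.49 (adjusted p 0.0447) and -0.62 (adjusted p 0.00665). With voom and sample weights, which gave WT + PBS replicate 1 a weight of 0.124, they were -0.50 (adjusted p 0.045) and -0.72 (adjusted p 0.000862). The WT call was lost with the Xist covariate (-0.83, adjusted p 0.209, and -0.46, adjusted p 0.259, when WT + PBS replicate 1 was left out as well) and with only the WT libraries fitted (-0.86, adjusted p 0.177). The MyTrMaSt call was kept with the Xist covariate (adjusted p 0.0381, and 0.000477 without WT + PBS replicate 1) and with only the MyTrMaSt libraries fitted (adjusted p 0.00172).

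Map1lc3a (LC3A) had 873, 232 and 370 CPM with PBS and 266, 260 and 179 with CBE in WT mice, and 228, 334 and 222 with PBS and 260, 326, 268, 335 and 309 with CBE in MyTrMaSt mice. The 873 CPM of WT + PBS replicate 1 was the highest of all libraries, and the WT groups overlapped. The WT value of -1.05 ± 0.33 had an adjusted p of 0.0508, and without that library it was -0.33 ± 0.20 (adjusted p 0.328). It was called without WT + PBS replicate 2 or 3 (adjusted p 0.00358 and 0.0368), at -1.39 and -1.21. The paper that reported these data lists it as lower after CBE in WT mice, with thresholds of 2-fold and an adjusted p below 0.05. In MyTrMaSt mice the value was 0.20 ± 0.29 (adjusted p 0.73). The interaction was 1.24 ± 0.44 (adjusted p 0.285), and 0.53 without WT + PBS replicate 1 (adjusted p 0.46).

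Map1lc3b (LC3B), whose protein is the usual marker of autophagosomes, had 697, 512 and 530 CPM with PBS and 526, 528 and 544 with CBE in WT mice, and 507, 515 and 616 with PBS and 537, 538, 518, 555 and 574 with CBE in MyTrMaSt mice. Outside the 2 libraries that stood apart, its level lay between 507 and 574 CPM. Its changes were -0.12 ± 0.14 and 0.00 ± 0.12, with 95% intervals from -0.41 to 0.17 and from -0.26 to 0.25, and the WT value was 0.04 without WT + PBS replicate 1. Gabarap, which gave the other branch of the family its name, had 482, 215 and 222 CPM with PBS and 237, 240 and 238 with CBE in WT mice, and 200, 249 and 226 with PBS and 237, 240, 234, 277 and 240 with CBE in MyTrMaSt mice. Apart from the 482 CPM of WT + PBS replicate 1 these groups lay close together, and the WT value was -0.35 ± 0.23 with that library and 0.13 without it.

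Gabarapl1, a close relative of Gabarap, had 930, 1160 and 1200 CPM with PBS and 1030, 1010 and 944 with CBE in WT mice, and 1220, 1330 and 1490 with PBS and 1170, 1090, 1120, 1130 and 1070 with CBE in MyTrMaSt mice. The MyTrMaSt groups did not overlap, at -0.27 ± 0.11 (adjusted p 0.156, and 0.0309 without WT + PBS replicate 1). The WT groups overlapped, at -0.14 ± 0.13 (adjusted p 0.551), and at -0.24 without that library (adjusted p 0.157).

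**Figure D3:**
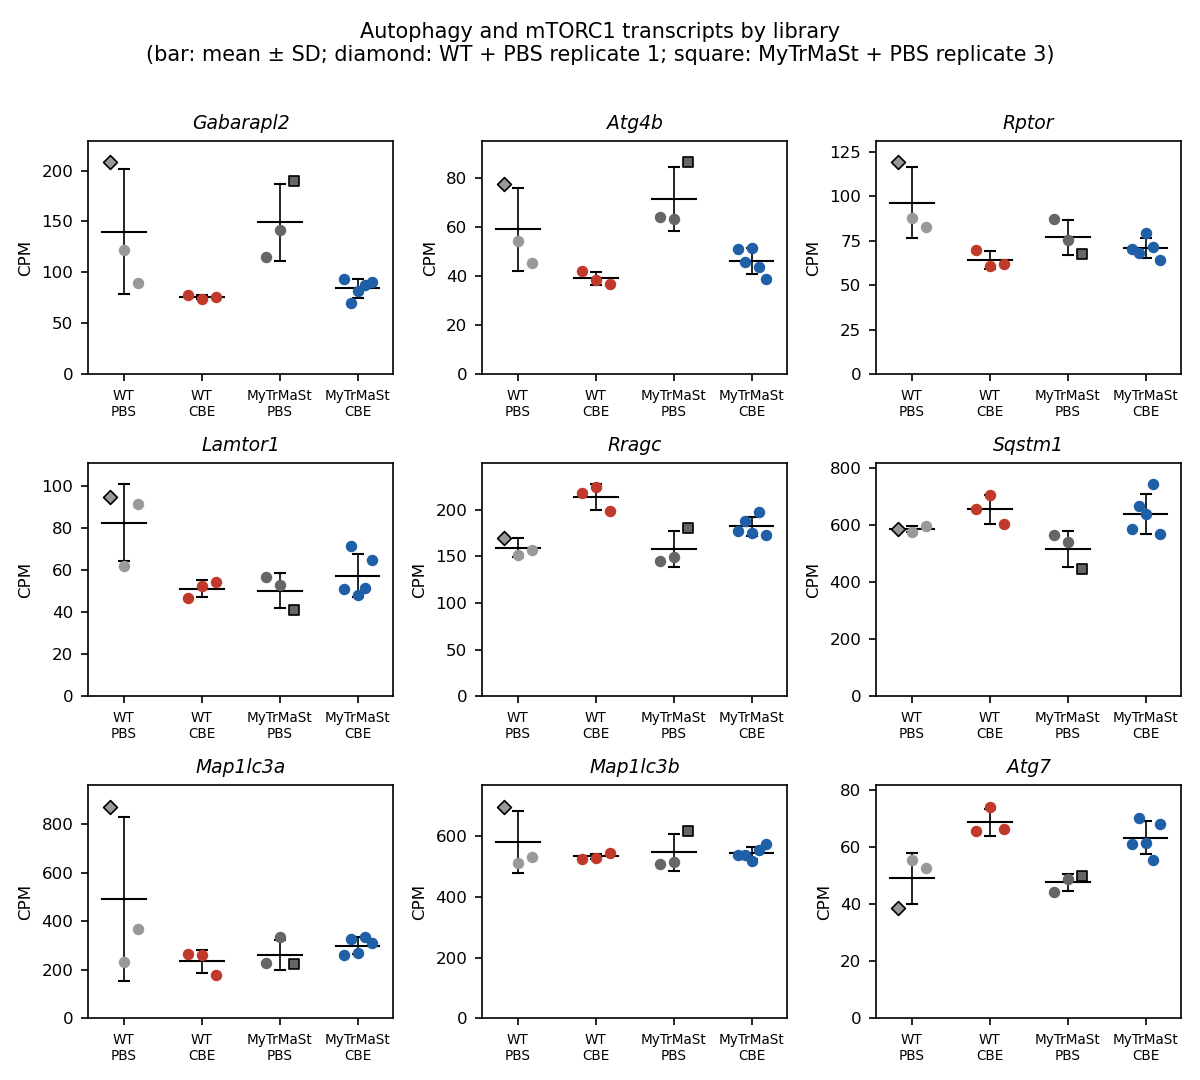
Level in CPM of 9 of the genes in every library, by group, with the mean and SD of each group (n = 3, 3, 3 and 5). The diamond is WT + PBS replicate 1 and the square MyTrMaSt + PBS replicate 3. Gabarapl2 and Atg4b are lower in all CBE libraries of both genotypes, Atg7 is higher in all of them, and Rragc is higher in all WT + CBE libraries, at 198 to 224 CPM, than in WT + PBS.

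None of the 6 cargo receptors was called in WT (10.6% of all genes) or MyTrMaSt mice (7.75%). Sqstm1 (p62), which links ubiquitinated cargo to LC3, had 586, 576 and 597 CPM with PBS and 656, 707 and 604 with CBE in WT mice, and 565, 542 and 445 with PBS and 586, 667, 639, 743 and 568 with CBE in MyTrMaSt mice. Each CBE library was above each PBS library of its genotype, with differences of 0.16 ± 0.14 in WT (adjusted p 0.52) and 0.31 ± 0.12 in MyTrMaSt mice (adjusted p 0.14, and 0.0439 without WT + PBS replicate 1). The 95% interval in WT ran from -0.13 to 0.45. Calcoco1, a receptor for the endoplasmic reticulum, had 37.9, 18.8 and 16 CPM with PBS and 14.3, 16 and 26.5 with CBE in WT mice, and 22.1, 21.9 and 17.6 with PBS and 23.4, 27.8, 32, 16.7 and 32.1 with CBE in MyTrMaSt mice, and its groups overlapped throughout. Its WT value was -0.30 ± 0.33, and 0.06 without WT + PBS replicate 1. Optn, a receptor in mitophagy, was at 0.46 ± 0.21 in WT and 0.22 ± 0.19 in MyTrMaSt mice (adjusted p 0.196 and 0.516, edgeR). Its WT value was 0.59 without WT + PBS replicate 1 (adjusted p 0.0726, edgeR). Tollip was at -0.19 ± 0.17 in WT (adjusted p 0.544, edgeR) and 0.43 ± 0.15 in MyTrMaSt mice (adjusted p 0.0989, and 0.0244 without WT + PBS replicate 1). Nbr1 and Tax1bp1 lay between -0.21 and 0.37, and Tax1bp1 had 32.5 CPM in WT + PBS replicate 1 against 184 to 229 in all other libraries. Without it the WT values of Nbr1 and Tax1bp1 were 0.03 and -0.05.

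Of the 6 genes of mTORC1 and its lysosomal anchor, 3 were called in WT mice (10.6% of all genes) and 0 in MyTrMaSt mice (7.75%), and the interaction was called for none of them. Lamtor1, which fixes the Ragulator scaffold to the lysosomal membrane (chromosome 7, 101905904 to 101926675, GRCm38, plus strand), had 94.8, 61.9 and 91.5 CPM with PBS and 46.6, 52.6 and 54.2 with CBE in WT mice, and 57, 52.8 and 40.9 with PBS and 51, 71.4, 48.2, 51.7 and 65 with CBE in MyTrMaSt mice. The WT + PBS libraries were above those of WT + CBE and of MyTrMaSt + PBS, and the MyTrMaSt groups overlapped. It fell by 0.68 ± 0.21 in WT mice (82.7 ± 18.1 to 51.1 ± 4.04 CPM, n = 3 and 3, adjusted p 0.0406, edgeR) and was at 0.19 ± 0.18 in MyTrMaSt mice (adjusted p 0.554). The interaction of 0.88 ± 0.27 had an unadjusted p of 0.00509 and an adjusted p of 0.219 in edgeR, so a difference between genotypes was not called. Between the PBS groups Lamtor1 was at -0.70 ± 0.20 (adjusted p 0.139, edgeR).

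Rptor (RAPTOR), the mTORC1 subunit that binds substrates, lies on chromosome 11 (119602905 to 119899576, GRCm38, plus strand). It had 119, 87.6 and 82.7 CPM with PBS and 69.8, 60.5 and 62.1 with CBE in WT mice, and 87.4, 75.6 and 67.6 with PBS and 70.1, 68, 79.4, 71.4 and 64.2 with CBE in MyTrMaSt mice. The WT groups did not overlap and the MyTrMaSt groups did. It fell by 0.57 ± 0.17 in WT mice (96.5 ± 19.8 to 64.1 ± 4.98 CPM, n = 3 and 3, adjusted p 0.0375, edgeR) and was at -0.12 ± 0.15 in MyTrMaSt mice (adjusted p 0.656). The interaction was 0.45 ± 0.22 (adjusted p 0.419), and 0.28 without WT + PBS replicate 1 (adjusted p 0.641).

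Rragc (RagC), a member of the Rag GTPases that recruit mTORC1, lies on chromosome 4 (123917446 to 123936997, GRCm38, plus strand). It had 170, 151 and 157 CPM with PBS and 218, 224 and 198 with CBE in WT mice, and 145, 149 and 180 with PBS and 177, 188, 175, 197 and 173 with CBE in MyTrMaSt mice. All WT + CBE libraries were above all others. It rose by 0.43 ± 0.13 in WT mice (159 ± 9.67 to 213 ± 13.9 CPM, n = 3 and 3, adjusted p 0.0497, edgeR) and was at 0.21 ± 0.12 in MyTrMaSt mice (adjusted p 0.31), and the interaction was -0.22 ± 0.18 (adjusted p 0.625). Rragd, which encodes RagD and can take the place of RagC, had 1.8, 22.4 and 26.2 CPM with PBS and 24.7, 23 and 15.1 with CBE in WT mice, and 26.6, 25.6 and 30.6 with PBS and 26.5, 19.9, 24.7, 27.1 and 27 with CBE in MyTrMaSt mice. The 1.8 CPM of WT + PBS replicate 1 stands for 2 counts, and neither contrast was called (0.18 ± 0.38 and -0.14 ± 0.31). The WT value was -0.16 without that library.

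These 3 calls were lost in many of the fits with a library left out. Over the 14 such fits the WT change ran from -0.86 to -0.57 for Lamtor1, from -0.66 to -0.39 for Rptor and from 0.40 to 0.49 for Rragc. Without WT + PBS replicate 1 the WT changes of Lamtor1 and Rptor were -0.57 and -0.39 (adjusted p 0.0663 and 0.0887), while that of Rragc was 0.48 (adjusted p 0.0128). Leaving out any WT + CBE replicate ended all 3 calls, with adjusted p from 0.0675 to 0.164, at -0.60, -0.70 and -0.72 for Lamtor1, -0.62, -0.52 and -0.54 for Rptor and 0.43, 0.40 and 0.49 for Rragc. The Lamtor1 call was also lost without WT + PBS replicate 3 (adjusted p 0.121), MyTrMaSt + PBS replicate 1 or 2 or MyTrMaSt + CBE replicate 5 (0.0521 to 0.0581), and that of Rptor without MyTrMaSt + PBS replicate 2 or MyTrMaSt + CBE replicate 5 (0.0561 and 0.0526). That of Rragc was lost without WT + PBS replicate 2 or 3, MyTrMaSt + PBS replicate 1 or 2, or MyTrMaSt + CBE replicate 1, 2 or 3 (0.0563 to 0.108). The call of Rragc was also lost with RLE factors and with no filter (adjusted p 0.05 and 0.0518), and those of Lamtor1 and Rptor with a floor of 10 counts (0.0675 and 0.0595). With the Xist covariate or with only the WT libraries fitted, all 3 were lost, with adjusted p from 0.0966 to 0.188. The changes were then -0.77 and -0.67 for Lamtor1, -0.60 and -0.56 for Rptor, and 0.54 and 0.44 for Rragc. DESeq2 kept all 3 calls (adjusted p 0.0236, 0.0205 and 0.00866), as did voom with sample weights, at -0.58, -0.41 and 0.47 (adjusted p 0.0259, 0.0396 and 0.00508). The direction was kept in all of these.

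Mtor, the kinase, had 123, 121 and 128 CPM with PBS and 101, 107 and 102 with CBE in WT mice, and 119, 119 and 159 with PBS and 123, 97.3, 100, 110 and 104 with CBE in MyTrMaSt mice. The WT groups did not overlap. At -0.26 ± 0.15 in WT and -0.31 ± 0.13 in MyTrMaSt mice, it was not called (adjusted p 0.305 and 0.167). Lamtor2, another Ragulator subunit, was at -0.37 ± 0.22 and 0.20 ± 0.20 (adjusted p 0.326 and 0.572). It had 199 CPM in WT + PBS replicate 1 against 111 and 133 in the other WT + PBS libraries, and the WT value was -0.10 without that library.

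Exons of 12 of the 35 genes overlap exons of a gene on the opposite strand in the GRCm38 annotation, and the sources used here do not say whether counting was stranded. These include Lamtor1 (595 bases shared with Lrrc51, which had a mean of 8.78 CPM in WT + PBS and 4.15 in WT + CBE), Rptor (84 bases with Rptoros), Rragc (264 bases with 4930535I16Rik), Sqstm1 (580 bases with Mrnip) and Becn1 (1297 bases with Cntd1). Reads of such pairs cannot be told apart without strand. Gabarapl2 and Atg4b have no such overlap. Atg9a also shares 1072 bases with Gm29253 on its own strand, which reads with strand would not separate either.

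TFEB and TFE3 bind E-box sequences in promoters, so the promoters of the 35 genes were searched for the E-box core CACGTG, which reads the same on both strands. The search covered 250 bases before to 50 bases after the RefSeq start (GRCm38.p6), a window held for 29 of the 35 genes. The core was found in 6 of the 29, Atg3, Atg5, Atg7, Atg14, Lamtor1 and Rragc. It was found in 8.09% of the 27025 genes with such a window. These were not limited to genes tested in these brains, so the shares are not of like sets. The longer CLEAR element, which contains the core, was found in 0 of the 29 and in 0.37% of the 27025 genes. The antioxidant response element (TGACNNNGC, both strands) was found in Atg13, Map1lc3b, Tax1bp1 and Ulk2, and in 3781 of 27025 genes. The windows of 3 called genes are shown, of which Rragc was higher and Lamtor1 and Gabarapl2 were lower in WT + CBE, with the E-box core in capitals. A match in these letters is a description and not a bound site.
Rragc, chr4:123917183-123917482, plus strand: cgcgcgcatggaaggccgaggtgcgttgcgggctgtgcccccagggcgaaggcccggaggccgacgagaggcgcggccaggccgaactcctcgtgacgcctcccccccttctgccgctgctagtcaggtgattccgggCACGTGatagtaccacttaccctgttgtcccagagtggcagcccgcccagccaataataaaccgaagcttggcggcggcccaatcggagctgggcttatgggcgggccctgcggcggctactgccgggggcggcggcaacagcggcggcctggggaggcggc
Lamtor1, chr7:101905587-101905886, plus strand: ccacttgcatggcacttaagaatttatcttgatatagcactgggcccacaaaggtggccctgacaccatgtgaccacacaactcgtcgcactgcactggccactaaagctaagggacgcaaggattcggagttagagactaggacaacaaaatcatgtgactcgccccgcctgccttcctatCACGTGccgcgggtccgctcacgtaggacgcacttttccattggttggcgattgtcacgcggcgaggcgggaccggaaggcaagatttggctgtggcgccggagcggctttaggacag
Gabarapl2, chr8:111940453-111940752, plus strand: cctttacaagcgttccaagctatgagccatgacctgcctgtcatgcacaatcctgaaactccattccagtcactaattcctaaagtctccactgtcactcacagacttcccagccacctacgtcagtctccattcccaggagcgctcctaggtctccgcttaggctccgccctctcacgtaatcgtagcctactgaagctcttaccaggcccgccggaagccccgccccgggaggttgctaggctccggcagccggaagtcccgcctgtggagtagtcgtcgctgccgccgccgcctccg
The core starts 112 bases before the start of Rragc and 68 bases before that of Lamtor1, and Gabarapl2 holds none in this window.

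Changes after CBE in WT and MyTrMaSt mice, which share no libraries, had the same sign for 15 of the 35 genes (42.9%), against 61.2% of all genes. This share rested on WT + PBS replicate 1, without which it was 27 of 35 (77.1%), against 68.6% of all genes. No gene of the 35 was called between the CBE groups, against 2.54% of all genes, the groups did not overlap for 4 genes (9.96% of all genes), and 1 had an unadjusted p below 0.05 in edgeR (8.06% of all genes), Optn at -0.45 ± 0.18 (adjusted p 0.441). DESeq2 and voom with sample weights also called 0 there. The 95% interval lay within 2-fold for 34 of the 35 genes in this comparison (81.1% of all genes). Between the PBS groups 0 of the 35 were called (0.186% of all genes), the groups did not overlap for 13 genes (20.2% of all genes), 9 had an unadjusted p below 0.05 in edgeR (16.8% of all genes), and DESeq2 called 1, Lamtor1. Without WT + PBS replicate 2, Lamtor1, Map1lc3a and Ulk2 were called there. For that fit and for DESeq2 between the PBS groups, the share of all genes is not given here. In the interaction 0 were called by edgeR, DESeq2 or voom (0.489% of all genes by edgeR), and 5 had an unadjusted p below 0.05, Map1lc3a, Atg3, Atg16l1, Tollip and Lamtor1 (12.5% of all genes). With WT + PBS replicate 1 left out, an unadjusted p below 0.05 was found by edgeR for 3 genes between the CBE groups (12.4% of all genes), for 5 between the PBS groups (11.2%) and for 2 in the interaction, Tollip and Lamtor1 (10.9%).

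Other genes of the pathways were read from lists of 33 autophagy genes, 30 mTORC1 genes and regulators, and 4 MiT/TFE transcription factors, of which 30, 29 and 3 were tested. By edgeR, in WT mice 1 autophagy gene was higher and none lower, 2 mTORC1 genes were higher and none lower, and 1 of the 3 factors was higher. In MyTrMaSt mice 1 autophagy gene was higher and 1 lower, 2 mTORC1 genes were higher and 2 lower, and none of the factors was called (1 had an unadjusted p below 0.05). Of all genes, 10.6% were called in WT and 7.75% in MyTrMaSt mice. Without WT + PBS replicate 1 the autophagy list had 1 call in WT and 8 in MyTrMaSt mice, and the mTORC1 list 2 and 8, against 12.6% and 18.6% of all genes.

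Vamp8, a SNARE that takes part in the fusion of autophagosomes with lysosomes and in other endosomal fusion, was the clearest of these. It had 50.5, 29.3 and 26.6 CPM with PBS and 75.4, 81.2 and 78.3 with CBE in WT mice, and 29, 31.4 and 29.2 with PBS and 57.3, 51.8, 54.3, 53.2 and 56 with CBE in MyTrMaSt mice. No CBE library overlapped a PBS library of either genotype, and WT + CBE lay above MyTrMaSt + CBE. It was a DEG in WT mice, where it rose by 1.20 ± 0.19 on the log2 scale (35.5 ± 13.1 to 78.3 ± 2.92 CPM, n = 3 and 3, adjusted p 0.000344, edgeR) and by 0.86 ± 0.17 in MyTrMaSt mice (29.9 ± 1.34 to 54.5 ± 2.17 CPM, n = 3 and 5, adjusted p 0.00442, edgeR). Both calls were kept whichever of the 14 libraries was left out, and with the Xist covariate (1.22 and 0.86, adjusted p 0.00804 and 0.00883). The difference between the CBE groups was not called (-0.52 ± 0.16, adjusted p 0.151, and 0.00551 without WT + PBS replicate 1), nor was the interaction (-0.34 ± 0.26, adjusted p 0.596, and -0.62, adjusted p 0.191, without that library). Microglial markers rose in the same groups with the same order of levels (3250 to 3830 CPM after CBE in WT mice and 1620 to 1860 in MyTrMaSt mice), and their part in this result was not tested.

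Eif4ebp1 (4E-BP1), a translation inhibitor that mTORC1 phosphorylates, had 9.93, 6.08 and 7.17 CPM with PBS and 20.9, 16 and 21.1 with CBE in WT mice, and 6.91, 7.4 and 5.28 with PBS and 7.4, 18, 13.4, 10.8 and 14.9 with CBE in MyTrMaSt mice. The WT groups were separate, and the lowest MyTrMaSt + CBE library had the same rounded level as the highest MyTrMaSt + PBS library. It was a DEG in WT mice, where it rose by 1.41 ± 0.31 (adjusted p 0.00579, edgeR) and by 0.97 ± 0.28 in MyTrMaSt mice (adjusted p 0.038, edgeR). The WT call was kept in all 14 fits with a library left out, and the MyTrMaSt call in 7 of 14, with adjusted p up to 0.181 and fold changes from 0.82 to 1.12. It was lost without WT + CBE replicate 1, any MyTrMaSt + PBS replicate, or MyTrMaSt + CBE replicate 2, 3 or 5. With the Xist covariate the WT call was lost (1.06, adjusted p 0.166) and the MyTrMaSt call was kept (1.05, adjusted p 0.0316).

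Fnip2, a partner of folliculin in nutrient signalling to the Rag GTPases, had 6.32, 8.29 and 10.5 CPM with PBS and 17.5, 20.7 and 12.7 with CBE in WT mice, and 6.22, 6.87 and 10.2 with PBS and 16.4, 13.5, 14.6, 14.3 and 11 with CBE in MyTrMaSt mice. The CBE libraries were above the PBS libraries in both genotypes. It rose by 0.98 ± 0.27 and by 0.85 ± 0.24 (adjusted p 0.0273 and 0.0385, edgeR). The WT call was lost without WT + PBS replicate 2 or WT + CBE replicate 1 or 2 (adjusted p up to 0.125), and over the 14 fits its fold change ran from 0.84 to 1.16. The MyTrMaSt call was lost without WT + CBE replicate 1, MyTrMaSt + PBS replicate 1 or 2, or MyTrMaSt + CBE replicate 1, 2, 3 or 4 (adjusted p up to 0.147), and there the fold change ran from 0.73 to 1.09. Both were lost with the Xist covariate, at 1.15 and 0.80 (adjusted p 0.0751 and 0.0696).

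**Figure D4:**
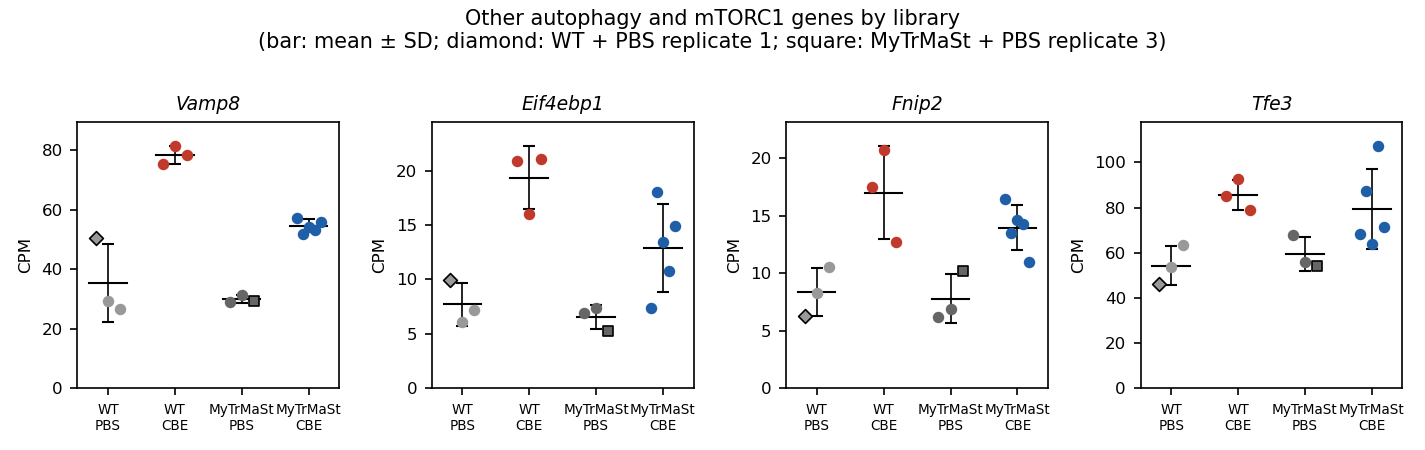
Level in CPM of 4 other genes of the pathways in every library, with the mean and SD of each group (n = 3, 3, 3 and 5) and the same symbols for the libraries that stood apart. Vamp8 and Fnip2 are higher in all CBE libraries of both genotypes, and Vamp8 lies at 75.4 to 81.2 CPM in WT + CBE and at 51.8 to 57.3 in MyTrMaSt + CBE.

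Tfe3, a transcription factor of lysosomal and autophagy genes, had 46, 53.6 and 63.3 CPM with PBS and 85.3, 92.5 and 78.9 with CBE in WT mice, and 68, 55.7 and 54.2 with PBS and 68.2, 87.1, 64, 107 and 71.2 with CBE in MyTrMaSt mice. The WT groups did not overlap and the MyTrMaSt groups did. It rose by 0.64 ± 0.20 in WT mice (adjusted p 0.0446, edgeR) and was at 0.42 ± 0.17 in MyTrMaSt mice (adjusted p 0.153). The WT call was kept in 5 of 14 fits with a library left out and was lost without WT + PBS replicate 1 (0.57, adjusted p 0.0548) or 2, any WT + CBE replicate, MyTrMaSt + PBS replicate 2, or MyTrMaSt + CBE replicate 1, 2 or 5 (adjusted p up to 0.148), with fold changes from 0.57 to 0.77 over the 14 fits. It was kept with the Xist covariate (0.99, adjusted p 0.0159). Tfe3 lies on the X chromosome (7762560 to 7775202, GRCm38, plus strand). Xist was at 0 counts in all WT + PBS libraries and at 1 to 47 in WT + CBE, and the part of sex in this result was not tested.

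Of the genes lower in MyTrMaSt + CBE, Atg4c, a relative of Atg4b, had 68.4, 62.9 and 64.8 CPM in MyTrMaSt + PBS and 49.5, 30.4, 40.9, 26.1 and 43.8 in MyTrMaSt + CBE, at -0.77 ± 0.23 (adjusted p 0.0466, edgeR). Rraga (RagA), the partner of RagC, had 171, 151 and 179 CPM and 132, 123, 102, 124 and 108, at -0.50 ± 0.15 (adjusted p 0.0472, edgeR). Wdr59, a subunit of the GATOR complex, had 6.22, 7.66 and 10.9 CPM and 3.12, 4.51, 3.65, 3.45 and 5.87, at -0.98 ± 0.28 (adjusted p 0.036, edgeR). The MyTrMaSt groups did not overlap for any of these. In WT mice Atg4c had 27.1, 65.8 and 65.4 CPM with PBS and 46.8, 43.6 and 48.2 with CBE. Rraga had 106, 162 and 162 CPM with PBS and 137, 146 and 169 with CBE, and Wdr59 had 4.51, 4.97 and 7.17 with PBS and 5.82, 5.16 and 4.82 with CBE. The WT groups overlapped for each of them. The WT changes of Atg4c, Rraga and Wdr59 were -0.24, 0.06 and -0.08, none called (adjusted p 0.634, 0.882 and 0.938). The interactions were -0.53 ± 0.35, -0.56 ± 0.23 and -0.90 ± 0.44, none called (adjusted p 0.542, 0.341 and 0.408), so a difference between genotypes was not shown. The WT overlap of Atg4c came from the 27.1 CPM of WT + PBS replicate 1, without which its WT change was -0.50 (adjusted p 0.111) and its interaction -0.26 (adjusted p 0.756). The MyTrMaSt calls were kept in 4, 3 and 5 of 14 fits with a library left out. All 3 were lost without any WT + CBE replicate, MyTrMaSt + PBS replicate 2 or 3, or MyTrMaSt + CBE replicate 2, 3 or 4, with adjusted p up to 0.148, 0.211 and 0.245, and over the 14 fits the changes ran from -0.88 to -0.67, from -0.56 to -0.44 and from -1.14 to -0.74. Besides these, Atg4c and Rraga were lost without MyTrMaSt + PBS replicate 1 or MyTrMaSt + CBE replicate 5, Rraga without WT + PBS replicate 3, and Wdr59 without MyTrMaSt + CBE replicate 1. With the Xist covariate all 3 were lost, at -0.69, -0.51 and -0.95 (adjusted p 0.0923, 0.0749 and 0.0663).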

How the data were processed

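Bulk MARSseq libraries of mouse brain, 1 per mouse, were sequenced by the authors with a 75-cycle kit and mapped to mm10 with hisat, keeping uniquely mapping reads. The submitters' processing notes also name cutadapt and HTSeq. The deposited values are raw read counts for each gene. Use of strand and of molecular identifiers is not given in the sources used here. A table of normalized values and the authors' own comparison columns (mean, log2 fold change, p-values, call and direction) were not used.

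Tests used R 4.3.3 and edgeR 4.0.16 on these counts (filterByExpr, TMM, quasi-likelihood test, 4 group means over all 14 libraries, Benjamini-Hochberg over 11852 genes). A DEG has both a 2-fold change and an adjusted p under 0.05. The interaction is the CBE change in MyTrMaSt minus that in WT mice. CPM use library sizes multiplied by TMM factors, and 0.5 was added for the heat map. Intervals are 95% intervals of the fitted fold change. Totals were 1290616 to 3704691 counts per library. The chi-square per degree of freedom between libraries of a group was 2.32 to 20.6 over 19 pairs, so no libraries were merged.

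The procedure was tested on simulated data. Members, lists and tests were chosen with earlier results of these data known. Every library is given for genes called in any comparison, for the 3 largest fold changes in each CBE comparison and in the interaction, and for 13 genes often read in autophagy. Other genes are given by range. Those given values of their own beyond this rule (Ulk2, Rb1cc1, Atg3, Atg7, Atg13, Atg14, Atg16l1, Pik3c3, Pik3r4, Wipi1, Optn, Nbr1, Tollip, Lamtor2 and Tax1bp1) were chosen after their values were seen. Alternatives were RLE factors, no filter or at least 10 counts in every library, DESeq2 1.42.0, limma 3.58.1 voom with sample weights, a replicate block, an Xist covariate, only the groups compared, and each library left out. Leaving out 2 libraries together, and the Xist covariate without WT + PBS replicate 1, were chosen after seeing the data. Replicate numbers did not pair the libraries, so the reported fit has no block.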

Additional observations from a re-analysis of the deposited data

Results flagged for a closer look

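In the group of 5 MyTrMaSt + CBE libraries, a library far from the others was looked for in each of the 35 genes, and 3 genes had one. Chance flags about 1 in 20 groups. Gabarap was at 277 CPM in MyTrMaSt + CBE replicate 4, against 234 to 240 in the other libraries of the group. Tax1bp1 was at 223 CPM in the same library, against 187 to 197. Lamtor2 was at 148 CPM in MyTrMaSt + CBE replicate 3, against 102 to 113. The groups of 3 libraries were too small for this check.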

How the results depend on the processing

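Of the 35 genes, 4 were called in WT + CBE versus WT + PBS. That number was 2 with at least 10 counts in every library, 0 with the Xist covariate and 0 with only the groups compared. It ran from 0 to 4 with each library left out. After the data were seen, 2 alternatives were added: with WT + PBS replicate 1 and MyTrMaSt + PBS replicate 3 left out it was 2, and with the Xist covariate and WT + PBS replicate 1 left out 1. In MyTrMaSt + CBE versus MyTrMaSt + PBS, 2 genes were called, and this was 4 with DESeq2, 9 with voom and sample weights, 1 with the Xist covariate, 6 with only the groups compared, and 0 to 10 with each library left out. With the Xist covariate and WT + PBS replicate 1 left out it was 8. Between the PBS groups it was 0, 1 with DESeq2 and 0 to 3 with each library left out (3 without WT + PBS replicate 2). Between the CBE groups and in the interaction it was 0 under every alternative run. The cause of these shifts was not tested. Shares of all genes are not given here for the Xist covariate with WT + PBS replicate 1 left out, or for DESeq2 between the PBS groups. Nor are they given for fits with a library other than WT + PBS replicate 1 left out by itself.

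With the replicate block, 0 genes were called in each of the 5 comparisons. Of 18 pairs of libraries with the same number, 3 had a correlation of deviations above 0.1 (range -0.172 to 0.165), so the numbers did not pair the libraries.

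Among single fold changes of the named genes with an unadjusted p below 0.05, 324 values under the alternatives kept direction and side of the threshold, 18 became called, 63 were no longer called and 1 reversed. The reversed value was Map1lc3a between the PBS groups, 0.02 with the Xist covariate and WT + PBS replicate 1 left out against -0.90. Some alternative changed the sign of 17 of the 35 genes in WT and of 5 in MyTrMaSt mice, 0 of them called. RLE factors moved the median of all genes by less than 0.1 on the log2 scale. Depth limits Rragd (2 counts in the lowest library), Ulk2 (11) and Atg14 (12). Among the called genes outside the 35, levels were also low for Wdr59 (3.12 to 10.9 CPM), Fnip2 (6.22 to 20.7) and Eif4ebp1 (5.28 to 21.1).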
